A study of Mus musculus with 9 samples.

Results

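The genes of cholesterol synthesis and of fatty acid synthesis were measured in 3 mouse stromal cell lines. Of 29 genes listed for these pathways, 28 had at least 1 probe set whose platform annotation gave that symbol alone, of 15964 genes named this way. The 28 genes were covered by 70 of 36899 probe sets. Acat2, which joins acetyl-CoA units at the entry of the sterol pathway, had no such probe set and was not analysed here. The genes fell into a sterol branch (16 genes with a probe set), a fatty acid branch (7 genes), 4 regulators and 1 sterol carrier. After normalization, sterol branch genes were mostly lower in both lines that support hematopoiesis than in the line that does not, and on the intensities as deposited this held for OP9 but not for AGM-s3-A9. The fatty acid branch had 1 gene with a large difference, Scd1, which was low in OP9. Each value rests on 1 array, so none of them has a test or a replicate SD.

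The lines compared were AGM-s3-A9, a hematopoiesis-supportive stromal line from the aorta-gonad-mesonephros (AGM) region, OP9, a supportive stromal line from the calvaria of newborn mice, and AGM-s3-A7, an AGM-derived stromal line that does not support hematopoiesis. The AGM region is the part of the embryo in which the first definitive blood stem cells arise. The labels name no treatment, genotype, culture time or confluence for any of the lines. OP9 differs from AGM-s3-A7 in tissue of origin as well as in support, and these cannot be told apart. The non-supportive class is represented by AGM-s3-A7 alone, so a difference from it cannot be told apart from a trait of that line. RNA of each line went on 1 array each of the Affymetrix types MG-U74A, MG-U74B and also MG-U74C, each with probe sets of its own. The comparisons of AGM-s3-A9 and of OP9 with AGM-s3-A7 share the AGM-s3-A7 arrays, so their ratios are not independent of each other and are given side by side.

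Cells make cholesterol from acetyl-CoA through mevalonate, isoprenoid units, squalene and lanosterol, and fatty acids from the same acetyl-CoA through malonyl-CoA. Both routes are controlled by the SREBP transcription factors, encoded by Srebf1 and Srebf2. SCAP escorts the SREBP precursors from the endoplasmic reticulum to the Golgi for cleavage, and the INSIG proteins hold them back when sterols are plentiful. SREBP2 acts mainly on sterol genes and SREBP1c mainly on fatty acid genes. SREBPs bind the promoter together with NF-Y, which binds the letters CCAAT, and Sp1, which binds GC boxes. OP9 is known for its readiness to turn into adipocytes, cells in which fatty acid synthesis and desaturation are prominent.

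The promoters of the sterol genes shared short motifs that played no part in how the genes were chosen. RefSeq promoter sequences (assembly GRCm38.p6) were found for 23 of the 29 listed genes, and where a gene had several start sites a match at any of them was counted. The letters CCAAT, on either strand of the 250 bases before the start site, were present for 13 of 14 sterol branch genes with a sequence, for 2 of 5 fatty acid branch genes and for 3 of 4 regulators. The same letters were present for 40.3% of 7302 genes above the detection level (the intensity up to which a value is taken as background) in at least 1 line. The sterol gene without them was Acat2. The Sp1 core CCGCCC, on either strand, was present for 13 of 14 sterol branch genes, 2 of 5 fatty acid branch genes and 4 of 4 regulators, against 65.8% of those 7302 genes, and Pmvk was the sterol gene that lacked it. The sterol regulatory element as first described was found for 0 of 23 genes. Its looser form TCACNCCAC was found for 1 of 23, Hmgcs1, at 137 bases before the start site on the plus strand of the gene, against 1.31% of the 7302 genes. None of these motifs overlap by their letters in the matches marked here. A match describes the letters only, and their absence from this window says nothing about SREBP binding.

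The 6 promoters shown are those of the genes with the largest mean absolute log2 ratio over the 3 comparisons among genes with a sequence. The windows are chr5:4104698-4104947 on the minus strand for Cyp51, chr13:8885356-8885605 on the plus strand for Idi1, chr9:42264301-42264550 on the minus strand for Sc5d, chr8:122443423-122443672 on the minus strand for Mvd, chrX:72918271-72918520 on the plus strand for Nsdhl, and chr8:64733579-64733828 on the minus strand for Msmo1. That of Hmgcs1, chr13:119690101-119690350 on the plus strand, was added after its match was seen. Each is printed 5′ to 3′ in the direction of transcription, ending just before the start site, with capitals for the matches to the NF-Y, Sp1 and looser sterol motifs above. A match on the other strand appears as its reverse complement.
Cyp51: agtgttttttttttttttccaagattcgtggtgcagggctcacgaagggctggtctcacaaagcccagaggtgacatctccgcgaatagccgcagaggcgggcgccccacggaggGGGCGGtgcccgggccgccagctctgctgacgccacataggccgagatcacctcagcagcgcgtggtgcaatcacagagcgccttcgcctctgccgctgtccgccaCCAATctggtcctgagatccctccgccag
Idi1: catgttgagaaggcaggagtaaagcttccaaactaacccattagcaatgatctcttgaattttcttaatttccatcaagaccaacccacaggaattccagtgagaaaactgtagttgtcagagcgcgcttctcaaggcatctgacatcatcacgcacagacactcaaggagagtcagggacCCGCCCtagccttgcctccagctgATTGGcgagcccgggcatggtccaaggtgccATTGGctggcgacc
Sc5d: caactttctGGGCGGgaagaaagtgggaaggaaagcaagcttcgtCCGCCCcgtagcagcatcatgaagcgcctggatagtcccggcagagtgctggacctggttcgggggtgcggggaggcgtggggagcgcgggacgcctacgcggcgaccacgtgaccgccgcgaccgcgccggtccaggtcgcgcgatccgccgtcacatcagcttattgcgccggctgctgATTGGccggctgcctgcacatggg
Mvd: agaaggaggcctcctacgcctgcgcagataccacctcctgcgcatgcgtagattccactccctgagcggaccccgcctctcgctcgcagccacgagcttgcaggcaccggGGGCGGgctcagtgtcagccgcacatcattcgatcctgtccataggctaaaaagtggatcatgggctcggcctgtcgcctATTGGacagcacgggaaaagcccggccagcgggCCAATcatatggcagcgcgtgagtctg
Nsdhl: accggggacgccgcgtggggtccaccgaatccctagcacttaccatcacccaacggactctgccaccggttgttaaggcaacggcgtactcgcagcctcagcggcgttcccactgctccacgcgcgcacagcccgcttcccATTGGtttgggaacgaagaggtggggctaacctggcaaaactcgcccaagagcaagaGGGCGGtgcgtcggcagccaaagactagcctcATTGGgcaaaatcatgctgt
Msmo1: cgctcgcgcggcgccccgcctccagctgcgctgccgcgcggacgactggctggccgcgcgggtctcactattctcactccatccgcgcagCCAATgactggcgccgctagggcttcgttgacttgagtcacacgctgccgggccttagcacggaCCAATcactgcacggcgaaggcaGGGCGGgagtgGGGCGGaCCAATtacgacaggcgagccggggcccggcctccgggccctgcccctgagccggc
Hmgcs1: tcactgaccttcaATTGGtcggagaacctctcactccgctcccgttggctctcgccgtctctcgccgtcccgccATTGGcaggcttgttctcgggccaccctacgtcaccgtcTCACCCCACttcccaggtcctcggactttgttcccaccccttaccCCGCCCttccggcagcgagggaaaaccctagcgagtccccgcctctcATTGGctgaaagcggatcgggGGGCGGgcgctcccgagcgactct
The CCAAT letters lie within 60 bases of the start site in all 7 of these windows. Msmo1 and Hmgcs1 hold 3 copies each, and Idi1, Mvd and Nsdhl hold 2 each.

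**Figure D1:**
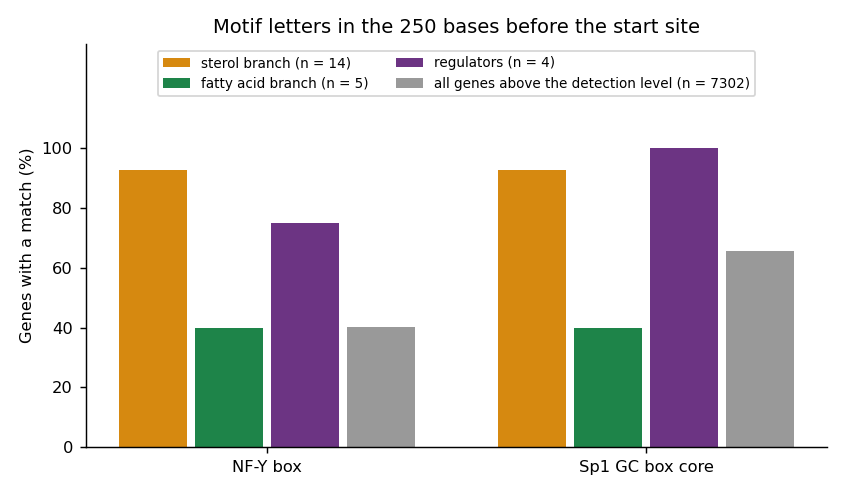
Bars give the percentage of genes whose 250 bases before the start site hold the letters of the NF-Y box (CCAAT) or of the Sp1 GC box core (CCGCCC) on either strand, for 14 sterol branch genes, 5 fatty acid branch genes, 4 regulators and all 7302 genes above the detection level. Both motifs were found for 13 of 14 sterol branch genes, and the fatty acid branch stood at 2 of 5 for each.

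The values used below are intensities after quantile normalization of the 3 arrays of a type. A detection level was set per type of array (MG-U74A 49.0, MG-U74B 52.8, MG-U74C 61.6), and values under it were raised to it before ratios were formed. A ratio against a line at or below the level is given as at least N-fold. Above their level in at least 1 line were 41 of the 70 probe sets, 27 of 33 on MG-U74A, 9 of 18 on MG-U74B and 5 of 19 on MG-U74C, and 26 of the 28 genes. Each gene is represented by its probe set of highest mean intensity. As an indication of measurement error, the difference between log2 ratios was taken in the brightest pair of probe sets for 1 gene on 1 array type. Its robust SD (from the median absolute deviation) was scaled down to that of a single probe set. It was 0.30 (AGM-s3-A9 over AGM-s3-A7, 1160 pairs), 0.31 (OP9 over AGM-s3-A7) and 0.32 (AGM-s3-A9 over OP9). Of such pairs, 19.9%, 21.7% and 20.4% in the same order stood at least 1.5-fold apart. Both probe sets of a pair share the same arrays, so this error covers disagreement between probe sets only. It does not cover differences between whole arrays or separate cultures.

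The arrays differed in overall brightness before normalization. On MG-U74A the median deposited intensity of AGM-s3-A9 was 1.51-fold that of AGM-s3-A7 and 1.51-fold that of OP9, whereas the medians of OP9 and AGM-s3-A7 were within 1.0024-fold. On MG-U74B and MG-U74C the median of AGM-s3-A9 was 0.82-fold and 0.70-fold that of AGM-s3-A7, and that of OP9 was 1.23-fold and 0.80-fold. Directions that involve AGM-s3-A9 are therefore relative to the typical gene of its array. The same holds for OP9 on MG-U74B and MG-U74C. On the deposited intensities the median log2 ratio of the sterol branch for AGM-s3-A9 over AGM-s3-A7 was 0.093, beside 0.24 for all genes. The same median for OP9 over AGM-s3-A7 was -0.52 both normalized and as deposited. Single OP9 ratios off MG-U74A moved more, that of Mvd over AGM-s3-A7 from 0.095 to -0.56 and that of Nsdhl from -0.91 to -1.51.

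Among the member genes above the detection level, 6 of 26 were lower by at least 1.5-fold in AGM-s3-A9 relative to AGM-s3-A7, and 0 were at least 1.5-fold higher. Across all 8590 genes in this comparison, 8.7% were that much lower and 10.5% that much higher. The 6 were Hmgcs1, Mvd, Idi1, Sqle, Msmo1 and Sc5d, all of the sterol branch. In OP9 over AGM-s3-A7, 8 of 25 were at least 1.5-fold lower and 0 at least 1.5-fold higher, where 13.4% of 8739 genes were that much lower and 14.2% that much higher. These were Idi1, Fdps, Sqle, Cyp51, Nsdhl, Ebp, Insig1 and Scd1. At 2-fold, OP9 over AGM-s3-A7 had 2 members lower (Cyp51 and Scd1) and 0 higher, against 5.98% and 5.14% of all genes, and AGM-s3-A9 over AGM-s3-A7 had 0 lower and 0 higher, against 2.28% and 3.08%. In AGM-s3-A9 over OP9, 2 of 26 members were at least 1.5-fold higher (Cyp51 and Scd1) and 2 at least 1.5-fold lower (Mvd and Msmo1), against 14.2% and 14.5% of 8760 genes, counts that on this scale did not exceed the background. Both higher ones were also past 2-fold, against 6.58% of all genes, and 0 members were that much lower, against 5.06%. In RNA from whole cultures, fewer cells with a transcript and less of it per cell cannot be told apart. On the hybridization-control scaling, where the all-gene medians of AGM-s3-A9 and of OP9 over AGM-s3-A7 stood at 0.23 and 0.21, the counts lower than AGM-s3-A7 were 2 in AGM-s3-A9 and 5 in OP9. As deposited, 14 of 25 members were past 1.5-fold upward for AGM-s3-A9 over OP9 and 6 of 26 for AGM-s3-A9 over AGM-s3-A7, where the all-gene medians stood at 0.19 and 0.24. On deposited MG-U74A alone the counts were again 14 and 6, and there the all-gene medians were 0.54 and 0.65. Shares of all genes past 1.5-fold were not taken on the hybridization-control or deposited scales, so counts on them are not read as results about the members.

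**Figure D2:**
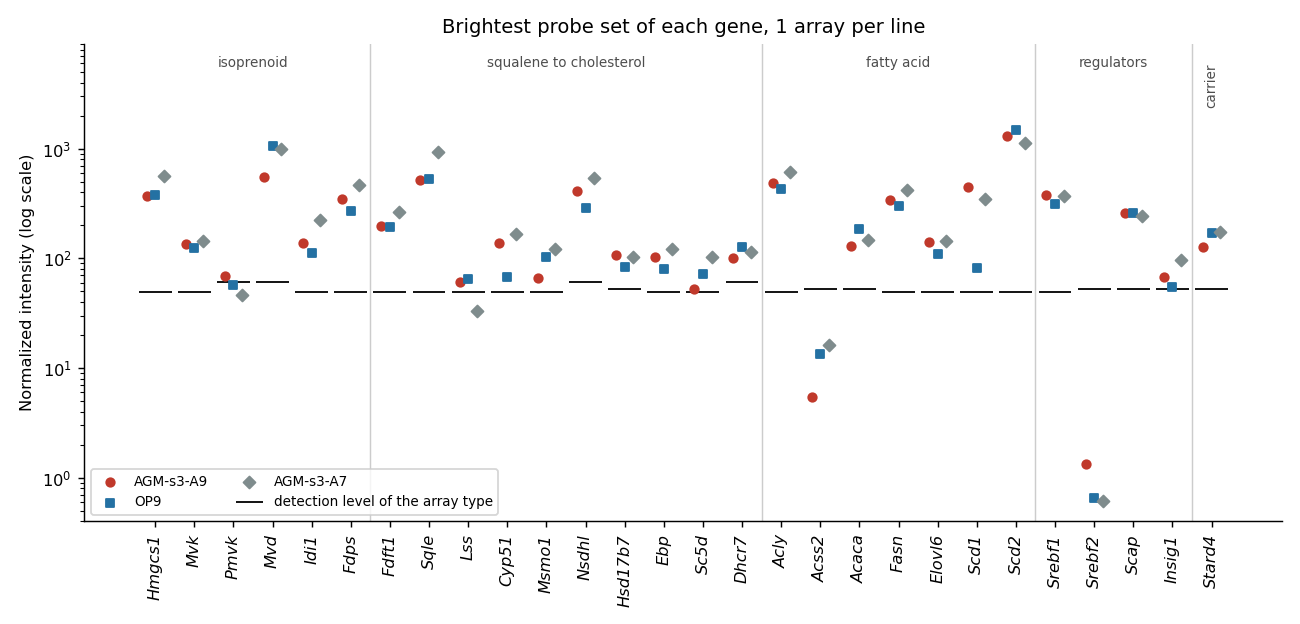
Normalized intensity (log axis) of the 28 measured genes in AGM-s3-A9 (red circles), OP9 (blue squares) and AGM-s3-A7 (grey diamonds), 1 array each, with a black line at the detection level of the array type that carries the probe set. On this normalized scale AGM-s3-A7 lies highest for 11 of 16 sterol branch genes, Scd1 is low in OP9 alone, and Srebf2 and Acss2 lie below the level in every line.

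The steps from acetyl-CoA to isoprenoids showed the sterol branch pattern in Hmgcs1, Idi1 and Fdps. Hmgcs1, the synthase that makes HMG-CoA, had intensities of 372 in AGM-s3-A9, 378 in OP9 and 561 in AGM-s3-A7. It was thus lower in both supportive lines by nearly equal amounts, 1.51-fold in AGM-s3-A9 and 1.49-fold in OP9, which put it just inside the 1.5-fold mark in the first comparison and just outside it in the second. Idi1, which interconverts the isoprenoid building blocks, had 139, 112 and 223 in AGM-s3-A9, OP9 and AGM-s3-A7. It was lowest in OP9 (1.9954-fold below AGM-s3-A7) and 1.60-fold below AGM-s3-A7 in AGM-s3-A9. As deposited, the AGM-s3-A9 over AGM-s3-A7 log2 ratios of Hmgcs1 and Idi1 were 0.14 and 0.045, on arrays whose all-gene median was 0.65. Fdps, which builds farnesyl diphosphate, the last intermediate shared by cholesterol and protein prenylation, had 350.4, 268 and 468.5. Its second probe set on the same array gave 276, 222 and 364, the same order of lines. Fdps was 1.75-fold lower in OP9 relative to AGM-s3-A7 and 1.34-fold lower in AGM-s3-A9, but as deposited it was 482 in AGM-s3-A9, 235 in OP9 and 387 in AGM-s3-A7.

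The remaining isoprenoid enzymes gave small or unsettled differences. Mvk, the mevalonate kinase, had 137 in AGM-s3-A9, 124 in OP9 and 145 in AGM-s3-A7, which lie within 1.17-fold of AGM-s3-A7. Pmvk, the next kinase, exceeded the detection level in AGM-s3-A9 alone, at 68.6 against 57.6 in OP9 and 46.6 in AGM-s3-A7. Mvd, the decarboxylase that follows, had 2 probe sets that disagreed. The brighter one, on MG-U74C, gave 550.25 in AGM-s3-A9, 1063.5 in OP9 and 995.7 in AGM-s3-A7, a value 1.81-fold lower in AGM-s3-A9 relative to AGM-s3-A7. Its deposited values were 583, 797 and 1179, so OP9 lay below AGM-s3-A7 on that scale. The one on MG-U74A gave 54.0, 31.1 and 52.8, close to the detection level, with AGM-s3-A9 and AGM-s3-A7 within 1.02-fold. The Mvd count above therefore rests on 1 of 2 probe sets, and that one carries a suffix by which Affymetrix marks probes chosen under relaxed rules.

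In the steps from squalene to cholesterol, Sqle stood out in both supportive lines and Cyp51 in OP9. Sqle, squalene epoxidase, a rate-controlling oxygen-dependent enzyme, had 515 in AGM-s3-A9, 528 in OP9 and 934 in AGM-s3-A7. The supportive lines were nearly level, 1.81-fold and 1.77-fold below AGM-s3-A7. As deposited, Sqle was 704 in AGM-s3-A9, 467 in OP9 and 799 in AGM-s3-A7, so AGM-s3-A7 was highest on that scale too. Cyp51, lanosterol demethylase, had 138.6 in AGM-s3-A9, 67.5 in OP9 and 166 in AGM-s3-A7. It was 2.45-fold lower in OP9 relative to AGM-s3-A7, and 2.05-fold higher in AGM-s3-A9 than in OP9. As deposited, Cyp51 was 190.4, 59.7 and 137, so OP9 was lowest on both scales while the order of AGM-s3-A9 and AGM-s3-A7 turned. A second probe set on MG-U74B, below its level in both supportive lines, gave 43.4, 26.6 and 91.1, at least 1.72-fold lower in each supportive line than in AGM-s3-A7.

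Nsdhl had the best covered pattern, with 5 probe sets on 3 array types. Nsdhl helps to remove methyl groups from sterol intermediates, together with Msmo1 and Hsd17b7. Its brightest probe set gave 414 in AGM-s3-A9, 286 in OP9 and 537 in AGM-s3-A7. The 3 on MG-U74A gave 216, 142 and 278, then 149, 87.0 and 165, then 126, 109 and 158 in the same order of lines. In these 4, on the normalized scale, both supportive lines lay below AGM-s3-A7. Their log2 ratios lay between -0.38 and -0.14 for AGM-s3-A9 and between -0.97 and -0.53 for OP9. The set on MG-U74B (43.7, 30.8 and 57.0) exceeded its level of 52.8 in AGM-s3-A7 alone, so its ratios could only lie below 0. The brightest set carries a suffix, though another one than that of Mvd. Suffixes are also carried by the brightest sets of Mvk, Pmvk, Hsd17b7, Sc5d and Dhcr7. Without suffixed probe sets the log2 ratios of Nsdhl were -0.14 for AGM-s3-A9 and -0.92 for OP9. The fold on the brightest was 1.88 for OP9 and 1.30 for AGM-s3-A9. In the 4 that gave a ratio of AGM-s3-A9 over OP9, AGM-s3-A9 was the higher. As deposited, the 3 sets on MG-U74A had AGM-s3-A9 above AGM-s3-A7 (294, 204 and 173 in AGM-s3-A9, against 229, 136 and 130.2 in AGM-s3-A7), while OP9 stayed below AGM-s3-A7 in all 5.

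Msmo1 and the brightest probe set of Sc5d were lowest in AGM-s3-A9 after normalization. Msmo1, the oxidase that starts this removal, had 66.4 in AGM-s3-A9, 103 in OP9 and 123 in AGM-s3-A7, 1.85-fold lower in AGM-s3-A9 and 1.20-fold lower in OP9 relative to AGM-s3-A7. As deposited, Msmo1 was 89.1, 90.6 and 102, and there AGM-s3-A9 and OP9 were nearly level. Sc5d, the sterol desaturase near the end of the pathway, had 52.2, 71.9 and 103 on its brightest probe set, 1.97-fold lower in AGM-s3-A9 relative to AGM-s3-A7. A probe set on MG-U74B gave 63.3, 39.3 and 117, again highest in AGM-s3-A7, but with OP9 lowest. As deposited, the brightest set gave 69.1, 63.8 and 85.2, also with OP9 lowest. The other one on MG-U74A gave 25.6, 90.8 and 51.8 and placed OP9 1.75-fold above AGM-s3-A7, so the position of OP9 for Sc5d differed between probe sets. Normalized and as deposited, AGM-s3-A9 lay below AGM-s3-A7 in each of the 3.

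Ebp, a sterol isomerase, had 104 in AGM-s3-A9, 79.5 in OP9 and 122 in AGM-s3-A7, 1.53-fold lower in OP9 relative to AGM-s3-A7. Its deposited values were 143, 70.5 and 101, so OP9 stayed lowest while AGM-s3-A9 was highest. Fdft1, squalene synthase, had 198, 191 and 265, about equally low in both supportive lines (1.33-fold and 1.38-fold), but as deposited it was 270.4 in AGM-s3-A9, 169.65 in OP9 and 218 in AGM-s3-A7. Hsd17b7 (109, 83.2 and 103) and Dhcr7 (101, 128 and 114), the reductase of the last step, differed by at most 1.30-fold in the 3 comparisons. Lss, which closes the sterol ring, was the gene of these steps that was higher in both supportive lines, at 61.1 in AGM-s3-A9, 64.5 in OP9 and 33.5 in AGM-s3-A7, which is below the detection level. Relative to AGM-s3-A7, Lss was higher by at least 1.25-fold in AGM-s3-A9 and by at least 1.32-fold in OP9.

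**Figure D3:**
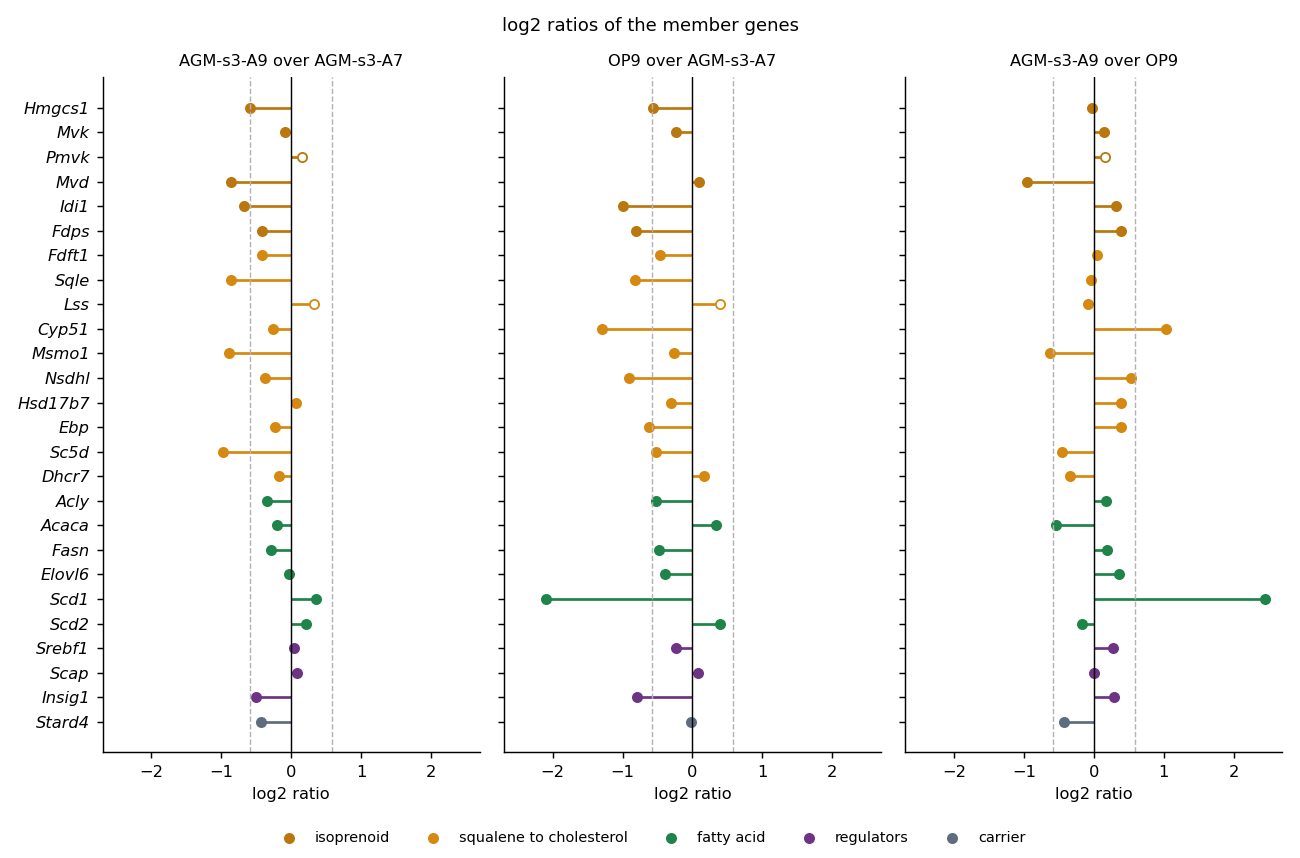
log2 ratios of the 26 genes above the detection level for AGM-s3-A9 over AGM-s3-A7, OP9 over AGM-s3-A7 and AGM-s3-A9 over OP9, coloured by role. Open points are lower bounds and dashed lines mark 1.5-fold. Of the sterol branch genes 13 of 16 lie left of 0 in the first panel and 12 of 15 in the second, on the normalized scale (as deposited, the median of the first panel's sterol genes was 0.093).

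Of the regulators, Insig1 had the direction of the sterol branch and the others with a ratio differed little after normalization. Insig1, itself an SREBP target, had 67.4 in AGM-s3-A9, 55.1 in OP9 and 96.0 in AGM-s3-A7, 1.42-fold and 1.74-fold lower in the supportive lines. OP9 lay just above the detection level of 52.8. Deposited Insig1 values were 53.4, 67.9 and 98.5, with AGM-s3-A9 lowest. Srebf1 had 380.4, 315 and 369.8, within 1.21-fold in all comparisons, but as deposited it was 522 in AGM-s3-A9, 279 in OP9 and 306 in AGM-s3-A7. Its annotation gives the gene alone, so the transcripts of the SREBP1 forms were not separated. Scap had 259.7, 258 and 244, nearly level, and 211, 306 and 255 as deposited. The 1 Srebf2 probe set gave 1.33, 0.66 and 0.61, far below the detection level in every line, so no ratio was formed for Srebf2. Stard4, which carries sterols between membranes, had 128, 172 and 173 and was 1.36-fold lower in AGM-s3-A9 relative to AGM-s3-A7, with OP9 and AGM-s3-A7 within 1.01-fold.

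The fatty acid branch showed Scd1 as its 1 large difference. Scd1, a stearoyl-CoA desaturase that makes monounsaturated fatty acids, had 446 in AGM-s3-A9, 82.0 in OP9 and 350.3 in AGM-s3-A7. It was low in OP9, 4.27-fold below AGM-s3-A7, and was 5.45-fold higher in AGM-s3-A9 than in OP9. A second Scd1 probe set gave 264, 21.4 and 98.3. OP9 was again lowest, at least 2.01-fold below AGM-s3-A7, and AGM-s3-A9 was above OP9 by at least 5.39-fold. The 2 sets differed for AGM-s3-A9 over AGM-s3-A7, at 1.27-fold and 2.69-fold higher. As deposited, Scd1 was 611, 72.7 and 289, the same order of lines.

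Scd2, a paralog of Scd1 on the same chromosome, 19, did not share that pattern. It had 1316 in AGM-s3-A9, 1485 in OP9 and 1136 in AGM-s3-A7, and OP9 was 1.31-fold above AGM-s3-A7. The second Scd2 probe set gave 748, 800.5 and 850.4, where the lines lay within 1.14-fold. OP9 thus held a low Scd1 value beside a Scd2 value at the level of the other lines. Cross-hybridisation between these paralogs was not tested.

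After normalization, the enzymes that make the fatty acid chain stood less than 1.5-fold apart between the 3 lines where they exceeded the level. Acly, which supplies cytosolic acetyl-CoA to both branches, had 484 in AGM-s3-A9, 427 in OP9 and 612 in AGM-s3-A7, 1.27-fold and 1.43-fold lower in the supportive lines. Fasn, fatty acid synthase, had 341, 298 and 417, 1.22-fold and 1.40-fold lower. Both genes thus had the order of lines seen for Fdps and Nsdhl, at smaller size, but as deposited AGM-s3-A9 was highest for both (663 for Acly and 469 for Fasn). Acaca, which makes malonyl-CoA, had 129, 187 and 148, and its highest value was in OP9, 1.26-fold above AGM-s3-A7 and 1.45-fold above AGM-s3-A9. Elovl6, which lengthens palmitate, had 143, 111 and 145, and its second probe set had 90.0, 60.1 and 66.7, with OP9 lowest in both. Acss2, which makes acetyl-CoA from acetate, lay below the detection level at 5.45, 13.4 and 16.3.

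Set side by side, the branch medians lay further apart for AGM-s3-A9 than for OP9, each over AGM-s3-A7. For AGM-s3-A9 over AGM-s3-A7 the median log2 ratio was -0.40 over 16 sterol genes (13 below 0) and -0.12 over 6 fatty acid genes, a difference between medians of -0.28. For OP9 over AGM-s3-A7 it was -0.52 over 15 sterol genes (12 below 0) and -0.44 over 6 fatty acid genes, a difference of -0.08. Without Scd1 the fatty acid medians were -0.21 and -0.39 in the same order. For AGM-s3-A9 over OP9 the medians were 0.10 and 0.19. The medians of all genes were 0.01, 0.04 and -0.02 in the 3 comparisons. These differences between medians have no test.

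Within MG-U74A, which carries most of the members, the sterol medians were -0.42 over 13 genes for AGM-s3-A9 and -0.54 over 14 genes for OP9, each over AGM-s3-A7. The fatty acid medians there, over 5 genes, were -0.03 and -0.49. On MG-U74B the 4 sterol genes gave -0.45 and -0.55, and the single fatty acid gene, Acaca, gave -0.21 and 0.33. On MG-U74C the sterol medians were -0.18 over 5 genes and -0.02 over 4, and no fatty acid gene exceeded the level. On the normalized scale the OP9 shift was thus seen on MG-U74A and not on MG-U74C, where Mvd, Dhcr7 and Hsd17b7 stood beside Nsdhl. On MG-U74B, Cyp51 and Nsdhl exceeded the level in AGM-s3-A7 alone, so their ratios over it could only lie below 0. Sc5d gave a bound there, with OP9 at 39.3 below the level of 52.8. Hsd17b7 alone was measured in both OP9 and AGM-s3-A7, at -0.31, so no shift is read from MG-U74B. By order of lines on the normalized scale, AGM-s3-A7 was highest for 16 of 26 members (61.5%), where it was highest for 28.9% of 9003 genes, and OP9 was lowest for 14 of 26 (53.8%), where it was lowest for 35.2% of all genes.

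**Figure D4:**
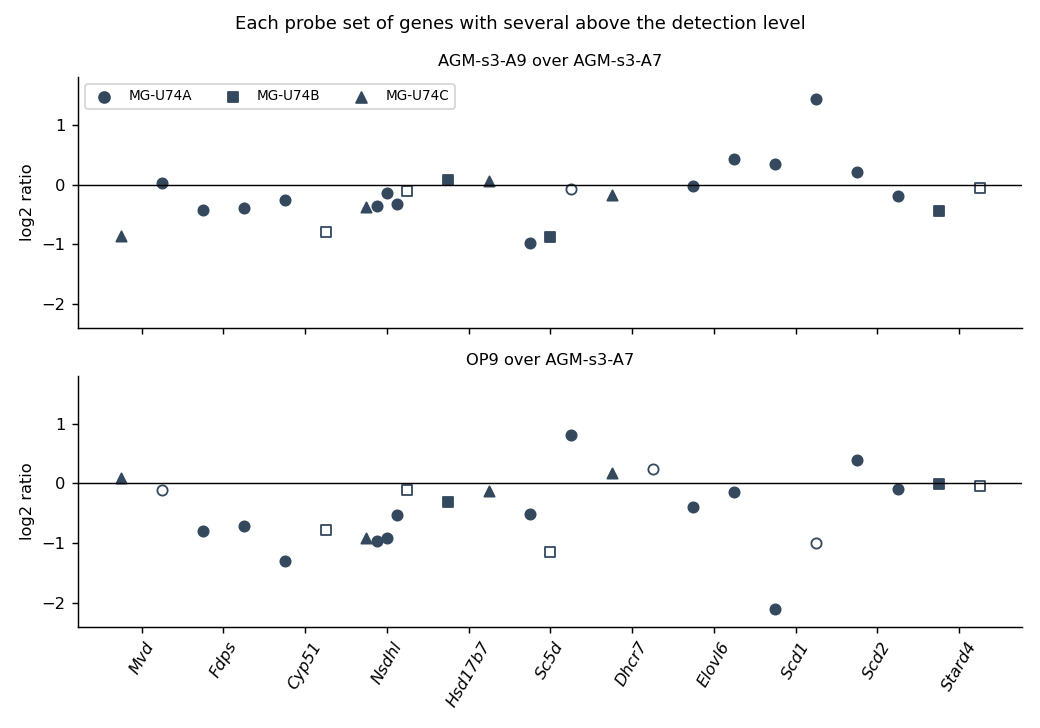
log2 ratios of every probe set above the detection level for genes with several, over AGM-s3-A7, for AGM-s3-A9 (upper panel) and OP9 (lower panel). The marker shape gives the array type and open markers are bounds. Nsdhl, Fdps and Cyp51 lie below 0 in all their probe sets in both panels (as deposited, the MG-U74A probe sets of all 3 genes were higher in AGM-s3-A9 relative to AGM-s3-A7), while Mvd, Sc5d and Scd2 have probe sets on both sides of 0 in the OP9 panel. The MG-U74B probe sets of Nsdhl and Cyp51 exceeded the level in AGM-s3-A7 alone, so they could only lie below 0.

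Other genes of the same pathways were looked at beside the members. Of 14 further sterol and SREBP genes, 10 had a probe set, all above the level. In AGM-s3-A9 over AGM-s3-A7, 0 of the 10 were 1.5-fold apart in either direction. In OP9 over AGM-s3-A7, 2 of the 10 were at least 1.5-fold lower, Insig2 and Tmem97, against 13.4% of all genes. Insig2, the second INSIG gene, had 354 in AGM-s3-A9, 182 in OP9 and 444 in AGM-s3-A7, 2.43-fold lower in OP9. Tmem97, a sterol-regulated membrane protein, had 367, 174 and 325, 2.11-fold higher in AGM-s3-A9 than in OP9 and 1.87-fold lower in OP9 relative to AGM-s3-A7. The median of the 10 genes was -0.10 for OP9 over AGM-s3-A7, smaller than that of the sterol branch.

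Among 12 further fatty acid genes above the level, the desaturases Fads1 and Fads2, which make polyunsaturated fatty acids, were low in OP9. Fads1 had 600.4 in AGM-s3-A9, 242 in OP9 and 558 in AGM-s3-A7, 2.31-fold lower in OP9 relative to AGM-s3-A7. Fads2 had 689.7, 112 and 458, 4.09-fold lower in OP9 relative to AGM-s3-A7 and 6.15-fold higher in AGM-s3-A9 than in OP9. Of the desaturases measured here, Scd1, Fads1 and Fads2 thus had their lowest value in OP9 and Scd2 its highest on its brighter probe set, where OP9 was lowest for 35.2% of all genes. This grouping was made after the values were seen. Counts over the 12 genes were near the background, 2 at least 1.5-fold lower in OP9 relative to AGM-s3-A7 and 2 higher, against 13.4% and 14.2% of all genes. The 2 higher ones were Me1 (318.5 in AGM-s3-A9, 455 in OP9 and 240.5 in AGM-s3-A7), which supplies NADPH, and Slc25a1 (329.9, 422 and 274), which exports citrate from mitochondria.

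Some genes of sterol efflux had their highest value in OP9, where OP9 was highest for 39.7% of all genes. Abcg1, a sterol exporter, had 34.7 in AGM-s3-A9, 159 in OP9 and 16.9 in AGM-s3-A7, at least 3.24-fold higher in OP9 than in either other line. Nr1h3, which encodes the sterol sensor LXR alpha, had 42.1, 113 and 3.77, at least 2.30-fold higher in OP9. Abca1, another exporter, had 6.09, 146 and 88.7, and in AGM-s3-A9 it was lower than in OP9 by at least 2.98-fold. Cyp7b1, an oxysterol hydroxylase, had 53.1, 112 and 57.8. Cyp27a1, which hydroxylates the side chain of cholesterol, went the other way with 113, 94.9 and 199, 2.10-fold lower in OP9 relative to AGM-s3-A7. Abcg1 and Nr1h3 were above the level in OP9 alone, so only a higher value in OP9 could be seen for them, and no count over the list is read as a result.

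**Figure D5:**
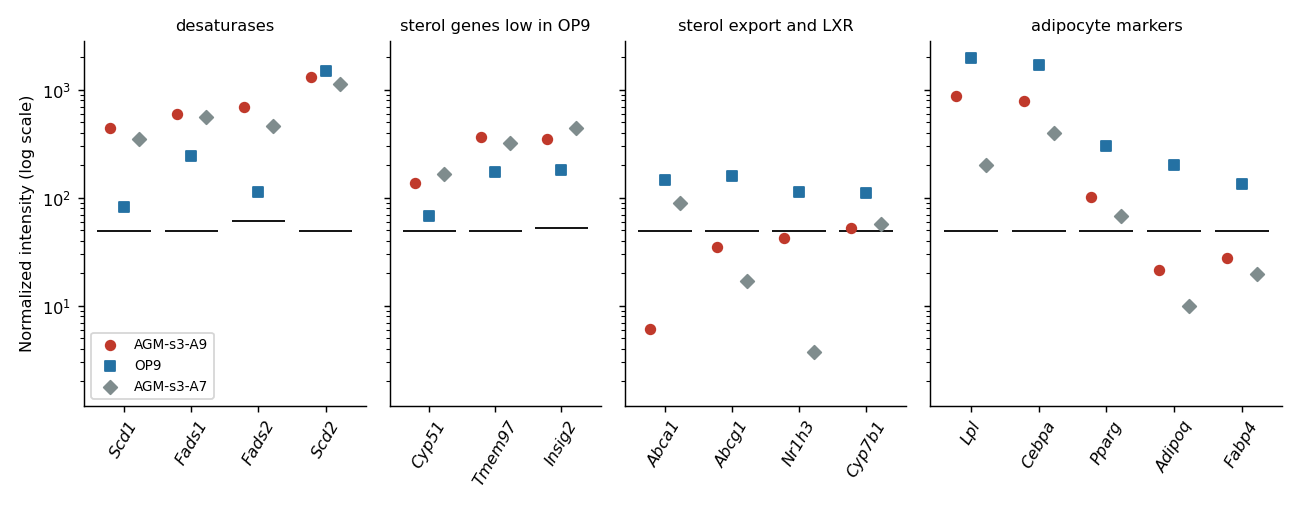
Normalized intensity (log axis) in AGM-s3-A9, OP9 and AGM-s3-A7, 1 array each, for desaturases, sterol genes low in OP9, sterol export and LXR genes, and adipocyte markers. Black lines are detection levels. Scd1, Fads1 and Fads2 are lowest in OP9 while Scd2 is not. The export and LXR genes shown, Cyp7b1 drawn beside them, and all 5 adipocyte markers shown are highest in OP9, as were 39.7% of all genes. Cyp27a1 and Mylip of the same efflux and storage list are not shown and were highest in AGM-s3-A7.

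Markers of other cell types and of proliferation also differed between the lines. Of 10 adipocyte markers, 8 had a probe set, and 5 of these exceeded the level in at least 1 line. Their summed intensity was 1852 in AGM-s3-A9, 4350 in OP9 and 734 in AGM-s3-A7. Adipoq and Fabp4 were above it in OP9 alone, so only a higher value in OP9 could be seen for them. Of the 3 above it in every line, Pparg, the adipocyte master regulator, had 103 in AGM-s3-A9, 299 in OP9 and 68.1 in AGM-s3-A7. Lpl had 878, 1974 and 203 and Cebpa 787, 1702 and 401, while Cd36, Cidec and Lipe lay below the level in all lines. Of 8 proliferation markers, 7 had a probe set, with summed intensities of 1253, 1018 and 713 and median log2 ratios over AGM-s3-A7 of 0.93 for AGM-s3-A9 and 0.70 for OP9. On the normalized scale the supportive lines thus had higher proliferation markers and lower sterol branch values than AGM-s3-A7. The part of adipocyte and proliferation markers in the sterol and Scd1 results was not tested.

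Of the stromal markers, Col1a1 (6684 in AGM-s3-A9, 3539 in OP9 and 6174 in AGM-s3-A7), Col1a2 and Pdgfrb were above the level in every line. Thy1 had 416 in AGM-s3-A9, 4.61 in OP9, below the level, and 206 in AGM-s3-A7, and the Vim probe set was below it in every line. Summed over the 5 stromal markers, the intensity was 12536, 7251 and 12328. Hematopoietic and endothelial markers exceeded the level in 0 of 4 cases each in any line. Epcam and Cdh1, 2 of 4 epithelial markers, lay between 84.5 and 126 in all lines, while Krt8 and Krt18 were below the level.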

How the data were processed

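RNA from 3 mouse stromal cell lines was measured on 9 Affymetrix arrays, 1 per line and array type. Per the labels' protocols, total RNA was isolated with RNeasy kits and 6 ug of it went into biotinylated cRNA. The authors deposited intensities on a linear scale, 1 for each probe set. How they were summarised and scaled is not given in the sources used here. Trimmed means of the deposited intensities differed by up to 61.1% between arrays of a type, so log2 intensities were quantile-normalized within each array type (Python 3.11.15, numpy 2.4.6, pandas 2.3.3), which removes any general shift between lines.

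The detection level was the higher of the array type's median and the 95th percentile of 34 control probe sets without target. Of 36701 probe sets that are no controls, 29131 had 1 symbol in the platform annotation, 724 several and 6846 none, and genes were named from the first kind only. Of the member genes, 1 probe set shared by Acss2 and another symbol was not used. Genes were called at 1.5-fold (0.58 on the log2 scale) or 2-fold. With 1 array per line and type there was no test. The number of arrays limits the precision.

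The member genes and lists were chosen with earlier results of these data known. Intensities are given for members at least 1.5-fold apart, regulators and fatty acid genes, and for other pathway genes at least 2-fold apart. Genes named beyond this were chosen after their values were seen. Alternatives were other scalings, floors, probe set choices and array types.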

Additional observations from a re-analysis of the deposited data

How the results depend on the processing

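The medians of both branches for OP9 over AGM-s3-A7 kept their direction under every alternative tried, from -0.59 to -0.28 for the sterol branch and from -0.49 to -0.21 for the fatty acid branch. Those for AGM-s3-A9 over OP9 stayed above 0, from 0.052 to 0.64 and from 0.18 to 0.84, while those for AGM-s3-A9 over AGM-s3-A7 turned. On the intensities as deposited, the sterol median for AGM-s3-A9 over AGM-s3-A7 was 0.093, and 0.31 on MG-U74A alone (an alternative chosen after seeing the data), where the all-gene medians were 0.24 and 0.65. Relative to those medians it stayed below all genes, by -0.15 and -0.33 on the log2 scale. The fatty acid median was 0.57 and 0.70 on these scales and 0.28 with hybridization-control scaling. The AGM-s3-A9 over OP9 medians were 0.61 and 0.64 for the sterol branch and 0.83 and 0.84 for the fatty acid branch, with all-gene medians of 0.19 and 0.54. As deposited, on all array types and on MG-U74A alone, the log2 ratios over AGM-s3-A7 in AGM-s3-A9 were 0.14 for Hmgcs1 and 0.045 for Idi1. Mvd turned to 0.032 over AGM-s3-A7 and 0.14 over OP9 in AGM-s3-A9 without suffixed probe sets or on MG-U74A only, where its other probe set is used, and to 0.57 in both comparisons on deposited MG-U74A.

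For AGM-s3-A9 over AGM-s3-A7, the member genes past 1.5-fold upward numbered 6 as deposited, on all array types and on MG-U74A alone, and 1 with hybridization-control scaling or with the median over probe sets. Those lower numbered 2 with hybridization-control scaling, 3 with the 75th percentile as floor (19 genes left) and 0 on deposited MG-U74A. In OP9 against AGM-s3-A7, 5 were lower with hybridization-control scaling and 4 with the 75th percentile as floor. In AGM-s3-A9 against OP9, 14 were higher on both deposited scales and 1 with the 75th percentile as floor. Those lower numbered 1 with 75th percentile scaling, the 75th percentile as floor, the median over probe sets, no suffixed probe sets or MG-U74A only, and 0 on deposited MG-U74A. Shares of all genes past 1.5-fold were not taken under these settings, so a changed count cannot be told apart from a change over all genes. For AGM-s3-A9 over AGM-s3-A7 the all-gene medians were 0.23 with hybridization-control scaling and 0.65 on deposited MG-U74A. Beyond the settings' own construction, the cause of the changed counts was not tested. The sterol minus fatty acid difference for AGM-s3-A9 over AGM-s3-A7 stayed between -0.48 and -0.19 in every setting. That for OP9 ranged from -0.17 to 0.06. No paired analysis was possible because each line has 1 array per array type. Signals near the detection level, such as those of Lss, Pmvk, Sc5d and Insig1, limit the size of ratios that could be seen.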

Other observations

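Of 9 listed genes of sterol efflux and storage, 7 had a probe set, and 6 of these exceeded the detection level in at least 1 line. Mylip, a ubiquitin ligase that marks lipoprotein receptors for degradation, had 163 in AGM-s3-A9, 246 in OP9 and 264 in AGM-s3-A7. It was 1.62-fold lower in AGM-s3-A9 relative to AGM-s3-A7. Gpam, which starts glycerolipid synthesis, had 162, 284 and 228 and in AGM-s3-A9 was below OP9 by 1.75-fold. Npc2, a lysosomal sterol carrier, had 1535, 1500.0 and 1112, about level in both supportive lines and 1.38-fold and 1.35-fold higher than in AGM-s3-A7. These genes were picked after their values were seen.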
